A study of Homo sapiens with 4 samples.

Results

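The genes studied here are the 4 ligands of platelet-derived growth factor (PDGF), *PDGFA*, *PDGFB*, *PDGFC* and *PDGFD*, and the 2 PDGF receptors, *PDGFRA* and *PDGFRB*. They were taken by name from a table of 63677 Ensembl genes, and all 6 had enough counts to be tested among 18252 genes. RNA came from LX-2, an established human line derived from hepatic stellate cells, so each group rests on this single line. Both groups received a mimic at 20 nM, either miR-6133-5p or the negative control miControl, and rhTGF-β1 at 5 ng/mL was added to both 24 h later. RNA was collected after 24 h with rhTGF-β1, in 2 libraries per group, and no group without rhTGF-β1 was sequenced. The comparison asks what the mimic did to the transcripts of a main mitogen pathway of stellate cells.

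PDGFs are secreted dimers that bring receptor tyrosine kinases together at the cell surface. PDGF-A and PDGF-B are cut inside the cell by furin-like convertases, whereas PDGF-C and PDGF-D leave the cell with a CUB domain that proteases such as the plasminogen activators remove outside. PDGFRα binds PDGF-A, PDGF-B and PDGF-C, and PDGFRβ binds PDGF-B and PDGF-D. In the liver, stellate cells gain PDGFRβ when they become myofibroblasts, and PDGF-B is known as a strong mitogen for them.

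With miR-6133-5p, *PDGFB* rose to 2.28 times its miControl level and *PDGFC* fell to 58.2% of it. *PDGFA* and *PDGFRB* differed little, with log2 fold changes of 0.10 and 0.04. *PDGFD* and *PDGFRA*, both scarce, had lower means with the mimic, but neither passed the test. A gene was called when the adjusted p-value was below 0.01 and the log2 fold change lay beyond 0.8, and 1 of the 6 genes, *PDGFB*, was called. Among all 18252 tested genes, 8.44% were called and 2.9% were called higher, and with 6 genes a single call is close to that background. At an adjusted p-value below 0.05 alone, *PDGFB* and *PDGFC* passed, 2 of 6, beside 30.2% of all tested genes. No member was called lower by edgeR or by DESeq2, and 3 were lower and 1 higher at an unadjusted p-value below 0.05, which 40.3% of all tested genes passed, 20.3% as lower and 20% as higher.

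Total counts per library ran from 51862006 to 93811213, which is 1.68 to 1.70 counts for each uniquely mapped read pair, so a pair could give more than 1 count. Between the 2 libraries of a group, the correlation of log2 CPM across genes was 0.991 in both groups. By a chi-square of the raw counts per degree of freedom, the miR-6133-5p libraries differed more, at 44.3 against 12.8 for miControl. This value grows with the number of counts, and both miR-6133-5p libraries held more counts than either miControl library. The part of depth in the gap was not tested. Of 19 stellate cell and myofibroblast markers, 8 were above 10 CPM in every library, *COL1A1*, *VIM* and *SPARC* among them, whereas *DES*, *LRAT*, *GFAP* and *LUM* were near 0 and too scarce to be tested. Summed over these 19 genes, the level was 8872 to 9481 CPM with miControl and 5891 to 6530 CPM with miR-6133-5p. Most of this difference lay in *COL1A1*, with means of 2916 and 1063 CPM, and in *SPARC*, with 3637 and 2749 CPM. *VIM*, at 1814 and 1792 CPM, hardly differed. The 19 genes include *PDGFRA* and *PDGFRB* themselves. Of the 14 tested, 10 had log2 fold changes below 0. Called lower were 4, *COL1A1*, *COL1A2*, *ACTA2* and *TAGLN*, beside 5.54% of all tested genes, and 0 were called higher. Among the markers that were higher but not called were *TIMP1* and *NGFR*, each with a log2 fold change of 0.42. Hepatocyte markers summed to at most 2.84 CPM, endothelial markers to at most 6.20 CPM and macrophage or leukocyte markers to at most 11.3 CPM. Cholangiocyte markers summed to 83.8 to 85.3 CPM in the control libraries and to 36.8 to 39.9 CPM in the mimic libraries. The lower sum lay in *SOX9*, whose mean fell from 80.4 to 31.3 CPM. *KRT7*, the only other marker tested in this list, went the other way, from a mean of 4.03 to 6.84 CPM. Its log2 fold change was 0.76 (adjusted p = 0.00317, edgeR), and it was not called. *EPCAM*, *KRT19* and *CDH1* were near 0. In bulk RNA, fewer cells of a kind and less RNA per cell cannot be told apart, and the part of these marker levels in the values given next was not tested.

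A microRNA pairs mainly through the first bases of its 5′ end with sites in 3′-untranslated regions (3′-UTRs), so short complements were looked for in the 6 genes. The RefSeq hairpin of *MIR6133* was cut into 102 windows of 7 bases, and the complement of each was searched on the transcript strand of the 3′-UTR of the canonical transcript of tested genes. Of the 36 predicted targets that the study followed up, 34 had a 3′-UTR here, and the window GAGGGAG, at chr7:133290952-133290958 on the plus strand of GRCh38.p14, stood out most. Its complement CTCCCTC was found in 73.5% of the 34 targets and in 21.3% of 13347 other genes. The study drew those targets from a prediction and from these libraries together, so the shares are a description of how the list was made. The other genes are all those outside the followed-up targets, and the rest of the study's longer list of predicted targets was not removed from them. In these other genes, the median log2 fold change was -0.15 with the 7-base complement and 0.08 without it. Among the 6 PDGF genes, only *PDGFA* held it, in 1 place. The shorter TCCCTC, which lies within CTCCCTC and is found in 40.6% of the 3′-UTRs, occurred once in *PDGFB*, in 2 places in *PDGFRA* and in 2 places in *PDGFRB*. The last *PDGFRB* site shown is followed by an A and so holds TCCCTCA, the complement of the window ranked next, which was found in 58.8% of the targets and in 14.7% of the other genes. *PDGFC* and *PDGFD* held none of these. The sites are shown because they set the letters beside the fold changes, 5′ to 3′ along the transcript, with the complement in capitals and coordinates in GRCh37.
*PDGFA*, chr7:537099-537121, minus strand: ggcggtcaCTCCCTCtgctgcca
*PDGFB*, chr22:39621243-39621264, minus strand: atattgttTCCCTCgtccgtct
*PDGFRA*, chr4:55161876-55161897, plus strand: catgtactTCCCTCttgaaacc
*PDGFRA*, chr4:55162141-55162162, plus strand: acatgattTCCCTCcagagaaa
*PDGFRB*, chr5:149494967-149494988, minus strand: agaccgaaTCCCTCcctgggaa
*PDGFRB*, chr5:149494402-149494423, minus strand: tggaggaaTCCCTCaccctctc
A match of letters is not a shown site, and no match says only that these letters are not in this 3′-UTR.

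*PDGFA* (ENSG00000197461) lies on chromosome 7 from 536895 to 559933, minus strand, and encodes the ligand that signals through PDGFRα. Its level, as CPM (counts scaled to library totals and TMM factors), was 34.7 and 36.2 in the miControl libraries and 38.8 and 37.4 in the miR-6133-5p libraries. Both miR-6133-5p libraries lay above both miControl libraries, as the groups of 64.4% of all tested genes also did not overlap. The log2 fold change was 0.10 (standard error, SE, 0.103, 95% interval -0.12 to 0.33, adjusted p = 0.506, edgeR quasi-likelihood test), and a change beyond 0.33 in either direction lay outside the interval.

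*PDGFB* (ENSG00000100311), the ligand that binds both receptors, lies on chromosome 22 from 39619364 to 39640987, minus strand. Its counts were 469 and 517 with miControl against 1438 and 2129 with the mimic, or 9.54 and 9.49 CPM against 21.98 and 21.46 CPM. The replicates of each group nearly coincided, and the groups were far apart. The mean went from 9.51 ± 0.0338 to 21.7 ± 0.367 CPM (SD, n = 2) (log2 fold change 1.19, SE 0.117, 95% interval 0.94 to 1.45, adjusted p = 7.21e-06, edgeR). It was the 497th highest log2 fold change of the 18252 tested. When the change was tested against 0.8 itself with glmTreat, the adjusted p-value was 0.0204 (edgeR) and the call was lost, and when any 1 library was dropped the value stayed between 1.16 and 1.19. Over the 4 libraries, the abundant genes with the profile nearest to that of *PDGFB*, by Euclidean distance of centred log2 CPM among 9510 genes, were *TPD52L2*, at 0.02, and *SPATS2L*, at 0.04. Since 4 libraries hold little besides the difference between the groups, such nearness says mainly that their fold changes were alike.

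*PDGFC* (ENSG00000145431), a ligand secreted in a latent form, lies on chromosome 4 from 157681606 to 157892951, minus strand. Its level was 281 and 289 CPM with miControl and 175 and 156 CPM with miR-6133-5p, so both libraries with the mimic were lower. The mean went from 285 ± 5.53 to 166 ± 13.0 CPM (SD, n = 2), a decrease of 41.8%, as a log2 fold change -0.78 (SE 0.106, 95% interval -1.01 to -0.55, adjusted p = 0.000105, edgeR). The decrease exceeded the spread between replicates and fell just short of the fold threshold of 0.8. Without replicate 1 of miControl it was -0.81 and without replicate 1 of miR-6133-5p it was -0.88, and in both cases *PDGFC* was called lower.

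*PDGFD* (ENSG00000170962), the latent ligand of PDGFRβ, lies on chromosome 11 from 103777917 to 104035107, minus strand, and 4.53% of its exonic length overlaps *DDI1* on the opposite strand. It had 111 and 156 counts with miControl and 110 and 172 counts with miR-6133-5p, which correspond to 2.26 and 2.86 CPM against 1.68 and 1.73 CPM. The mimic libraries were below both control libraries, which differed from each other. The log2 fold change was -0.58 (SE 0.228, 95% interval -1.08 to -0.09, adjusted p = 0.0708, edgeR), and it did not pass the test.

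**Figure D1:**
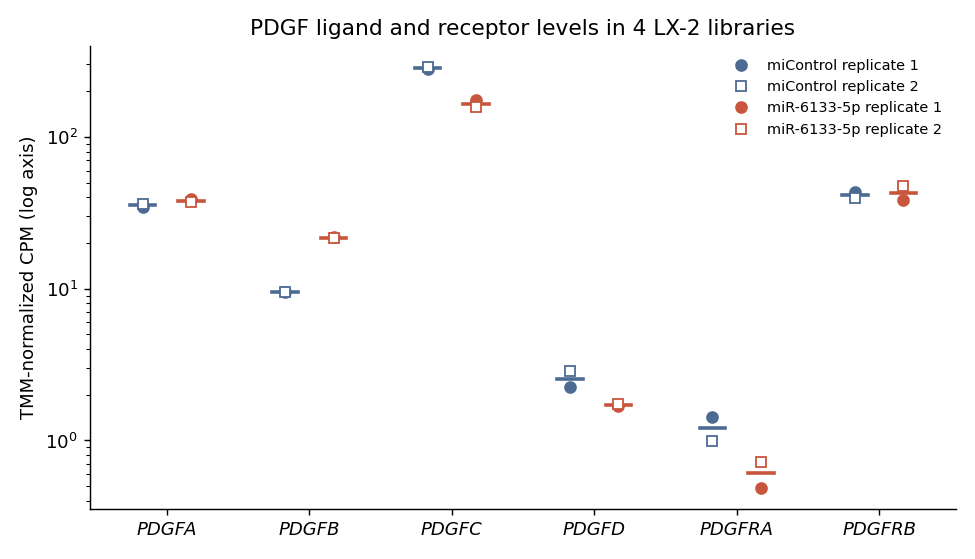
Level of each PDGF ligand and receptor gene in the 4 libraries, as TMM-normalized CPM on a log axis, with replicate 1 as filled circles, replicate 2 as open squares and a bar at the mean of each group (n = 2). *PDGFB* sits near 9.5 CPM with miControl and near 21.7 CPM with miR-6133-5p, *PDGFC* is lower with the mimic, and the groups of *PDGFRB* overlap.

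*PDGFRA* (ENSG00000134853), the receptor of PDGF-A, PDGF-B and PDGF-C, lies on chromosome 4 from 55095447 to 55164412, plus strand. Another annotated gene on the same strand shares 16.1% of its exon bases, so part of its reads is uncertain. It had 70 and 54 counts with miControl and 32 and 72 counts with miR-6133-5p, or 1.42 and 0.991 CPM against 0.489 and 0.726 CPM. Both libraries with the mimic were below both control libraries, with few counts behind each value. The log2 fold change was -0.97 (SE 0.354, 95% interval -1.73 to -0.20, adjusted p = 0.0549, edgeR), past 0.8 in size but not past the adjusted p-value. Dropping any 1 library gave values from -1.31 to -0.70.

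*PDGFRB* (ENSG00000113721), the main PDGF receptor of activated stellate cells, lies on chromosome 5 from 149493402 to 149535435, minus strand. Its level was 43.6 and 39.8 CPM with miControl and 38.3 and 47.3 CPM with miR-6133-5p. The miR-6133-5p libraries lay on either side of both control libraries, so the groups overlapped. The log2 fold change was 0.04 (SE 0.120, 95% interval -0.22 to 0.30, adjusted p = 0.849, edgeR), and the interval leaves out a change of 0.8 in either direction. Its sign turned when 1 library was left out, to -0.05 without replicate 2 of miControl and to -0.14 without replicate 2 of miR-6133-5p.

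**Figure D2:**
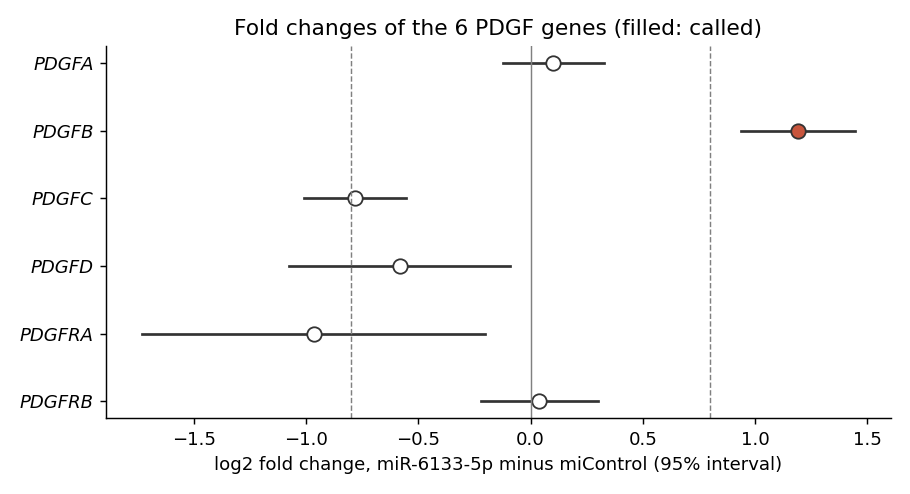
Log2 fold change of the 6 PDGF genes, miR-6133-5p minus miControl, with 95% intervals from the edgeR fit as bars and the threshold of 0.8 as dashed lines. The *PDGFB* interval, 0.94 to 1.45, lies beyond the threshold, that of *PDGFC* spans it at -0.78, and those of *PDGFA* and *PDGFRB* include 0.

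Within a library, the count of *PDGFRB* can be set against that of *PDGFRA* without any scaling between libraries. The log2 ratio was 4.94 and 5.33 in the miControl libraries and 6.29 and 6.03 in the miR-6133-5p libraries. It was higher by 1.03 with the mimic, and the groups did not overlap. The exact permutation test, two-sided, gave p = 0.333, which is the smallest that 2 libraries against 2 allow, so it cannot reach 0.05. Of the 2 genes, *PDGFRA*, the scarce one, had the larger log2 fold change.

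Levels of different genes were compared per kilobase of annotated exon. In the miControl group *PDGFC* was highest at 47.5 ± 0.922 CPM per kb (SD, n = 2), followed by *PDGFA* at 7.73 ± 0.222, *PDGFRB* at 5.84 ± 0.368 and *PDGFB* at 2.38 ± 0.00846 CPM per kb. *PDGFD* followed at 0.600 ± 0.101 and *PDGFRA* at 0.126 ± 0.0320 CPM per kb. Each neighbour in this order stood apart from the next by more than the spread between the libraries. In the miR-6133-5p group the order of the means was the same, with *PDGFC* at 27.6 ± 2.17 and *PDGFA* at 8.30 ± 0.210 CPM per kb. *PDGFB*, at 5.44 ± 0.0920 CPM per kb, then lay within the spread of *PDGFRB*, at 5.997 ± 0.900 CPM per kb. With the length of the longest transcript instead, *PDGFRB* had 6.71 and 8.30 and *PDGFB* 5.90 and 5.76 CPM per kb, which did not overlap, so whether these neighbours differed depended on the length used. LX-2 cells thus held far more transcript of PDGFRβ than of PDGFRα, at a ratio per kb of 40.9 and 53.8 in the miControl libraries and of 105 and 87.3 in the miR-6133-5p libraries.

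The makeup of the ligand transcripts was also read within each library. *PDGFC* made up 81.7% and 81.5% of the ligand counts per kb in the miControl libraries and 67.0% and 65.2% in the miR-6133-5p libraries. *PDGFB* took 4.17% and 4.03% with miControl and 12.7% and 13.4% with miR-6133-5p. The share of *PDGFA* went from 13.2% and 13.4% to 19.4% and 20.4%, although its own level differed little, because a share depends on the other ligands. *PDGFD* stayed between 0.907% and 1.14% in the 4 libraries.

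**Figure D3:**
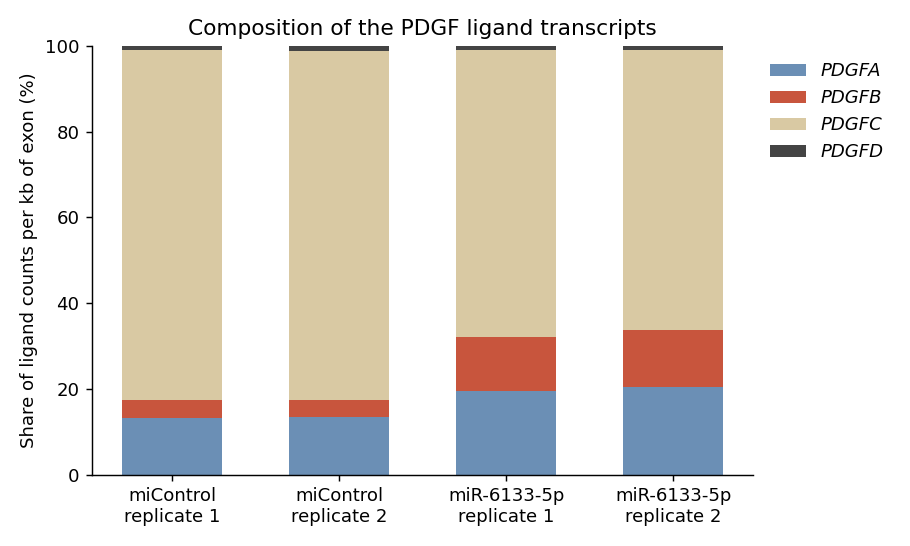
Share of each PDGF ligand in the summed ligand counts per kilobase of exon, in percent, for each of the 4 libraries as a stacked bar. *PDGFC* fills about 81.5% of the miControl bars and between 65.2% and 67.0% of the miR-6133-5p bars, and the *PDGFB* segment is larger in both miR-6133-5p bars.

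Of 9 genes for the processing and retention of PDGF ligands, 8 were tested, 2 were called lower and 1 higher, beside 5.54% and 2.9% of all tested genes. *FURIN*, the convertase that cuts the A and B chains, had 230 and 210 CPM with miControl and 72.5 and 78.2 CPM with miR-6133-5p (log2 fold change -1.55, SE 0.108, adjusted p = 4.27e-07, edgeR). *PCSK7*, a convertase of the same family, had 134 and 126 CPM against 50.7 and 55.6 CPM (log2 fold change -1.29, SE 0.106, adjusted p = 1.46e-06, edgeR). Both convertase transcripts fell while that of *PDGFB*, a substrate of furin, rose. *PLAU*, the urokinase plasminogen activator, which can release PDGF-D from its latent form, rose from 16.7 and 17.2 CPM to 37.2 and 31.2 CPM (log2 fold change 1.01, adjusted p = 3.56e-05, edgeR). *PLAT*, the tissue plasminogen activator, which does so for PDGF-C, had a log2 fold change of 0.33 (adjusted p = 0.0225, edgeR) and was not called. The median of the 8 genes was 0.34, beside 0.03 over all tested genes. The number called higher was 0 with glmTreat and 2 with the replicate block or with no filter on low counts.

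All 8 receptor partners, surface proteins that bind PDGFs or act together with their receptors, were tested and had log2 fold changes below 0. Of these, 4 were called lower, beside 5.54% of all tested genes. Their median was -0.76, beside 0.03 over all tested genes. *S1PR1*, at -0.04, and *NRP1*, at -0.18, lay near 0 (adjusted p = 0.909 and 0.204, edgeR). *ITGB3*, the β3 integrin chain, had 14.03 and 13.91 CPM with miControl and 4.07 and 5.52 CPM with miR-6133-5p (log2 fold change -1.53, adjusted p = 9.71e-06, edgeR). Its α partner *ITGAV* was at -0.87 and *EGFR*, a receptor that can pair with PDGFRβ, at -0.94 (adjusted p = 5.51e-05 and 4.54e-05, edgeR). *LRP1*, an endocytic receptor that PDGFRβ phosphorylates, was at -0.80 (SE 0.194, adjusted p = 0.007, edgeR), with 302 and 285 CPM against 121 and 216 CPM, so its mimic libraries disagreed. Without replicate 1 of miR-6133-5p, 2 of the 8 were called, and when only library totals were used for scaling, or with glmTreat, 1 was.

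The 21 adaptors and effectors that bind the activated receptors were all tested, and their median log2 fold change was -0.04, with values from -0.55 to 0.87. *RASA1*, the Ras GTPase-activating protein that docks on PDGFRβ, was the 1 gene called, higher, beside 8.44% of all tested genes called, and went from 130 and 142 CPM to 238 and 258 CPM (log2 fold change 0.87, adjusted p = 4.38e-05, edgeR). That call was lost without replicate 1 of miControl, without replicate 2 of miR-6133-5p and with glmTreat. Of the others, 4 had an unadjusted p-value below 0.05 and were lower and 2 were higher, beside 20.3% and 20% of all tested genes.

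Of 10 negative regulators of the receptors, 3 were called lower, beside 5.54% of all tested genes, and 1 was with glmTreat. *CBL* and *CBLB* encode ubiquitin ligases that mark activated receptor tyrosine kinases for breakdown. *CBL* had 148 and 150 CPM with miControl and 54.5 and 73.0 CPM with miR-6133-5p (log2 fold change -1.22, adjusted p = 1.5e-05, edgeR). *CBLB* had 72.0 and 79.6 CPM against 30.2 and 32.4 CPM (log2 fold change -1.28, adjusted p = 1.69e-06, edgeR). *SH2B3*, an adaptor that dampens cytokine and growth factor receptors, fell from 373 and 371 CPM to 174 and 164 CPM (log2 fold change -1.14, adjusted p = 3.29e-06, edgeR). In all 3 genes the groups did not overlap, as was the case for 64.4% of all tested genes. The median of the 10 was -0.16.

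Of 14 immediate early genes, which growth factor receptors switch on without new protein synthesis, 5 were called lower, beside 5.54% of all tested genes, and the median was -0.57. *EGR1*, a zinc finger factor known to act on the *PDGFA* and *PDGFB* promoters, had 19.1 and 16.9 CPM with miControl and 3.42 and 3.40 CPM with miR-6133-5p (log2 fold change -2.40, SE 0.137, adjusted p = 9.62e-08, edgeR). *FOS* was at -1.06, *CCL2* at -0.99 and *EGR2* at -0.94 (adjusted p = 0.00412, 0.000115 and 3e-05, edgeR). *MYC* was the remaining gene called, at -0.845. When TMM factors were left out, 3 of the 14 were called lower, and with glmTreat 1 was. RNA was taken 24 h after rhTGF-β1, and no PDGF was added, so these are levels at that time and not a response to PDGF.

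Of 10 proliferation genes, 2 were called higher, beside 2.9% of all tested genes, *RRM2*, a ribonucleotide reductase subunit, at 1.15 and *TOP2A*, the mitotic topoisomerase, at 0.98 (adjusted p = 3.23e-06 and 0.000198, edgeR). *TOP2A* had 746 and 1056 CPM with miControl and 1682 and 1874 CPM with miR-6133-5p. Higher but not called were *PCNA*, at 0.57, *CDK1*, at 0.52, and *CCNB1*, at 0.395 (adjusted p = 0.0019, 0.00322 and 0.0154, edgeR). Lower but not called were *CCND1*, at -0.32, and *E2F1*, at -0.38 (adjusted p = 0.0238 and 0.0151, edgeR). At an unadjusted p-value below 0.05 (edgeR), 5 of the 10 were higher and 2 lower, beside 20% and 20.3% of all tested genes. *MKI67* was at 0.002, and its miR-6133-5p libraries had 823 and 1539 CPM. The median of the 10 was 0.28, and 1 was called without replicate 1 of miControl and 0 with glmTreat. Of 7 genes for the receptors related to PDGFRs (*KIT*, *CSF1R*, *FLT3*) and their ligands, 5 were tested and none was called by edgeR or by DESeq2, with 3 higher at an unadjusted p-value below 0.05, beside 20% of all tested genes. With the replicate block, with library totals, with no filter on low counts or without replicate 1 of miR-6133-5p, 1 of them was called higher. *KIT* had 1.06 and 0.789 CPM with miControl and 1.498 and 2.24 CPM with miR-6133-5p (log2 fold change 1.03, adjusted p = 0.0199, edgeR).

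**Figure D4:**
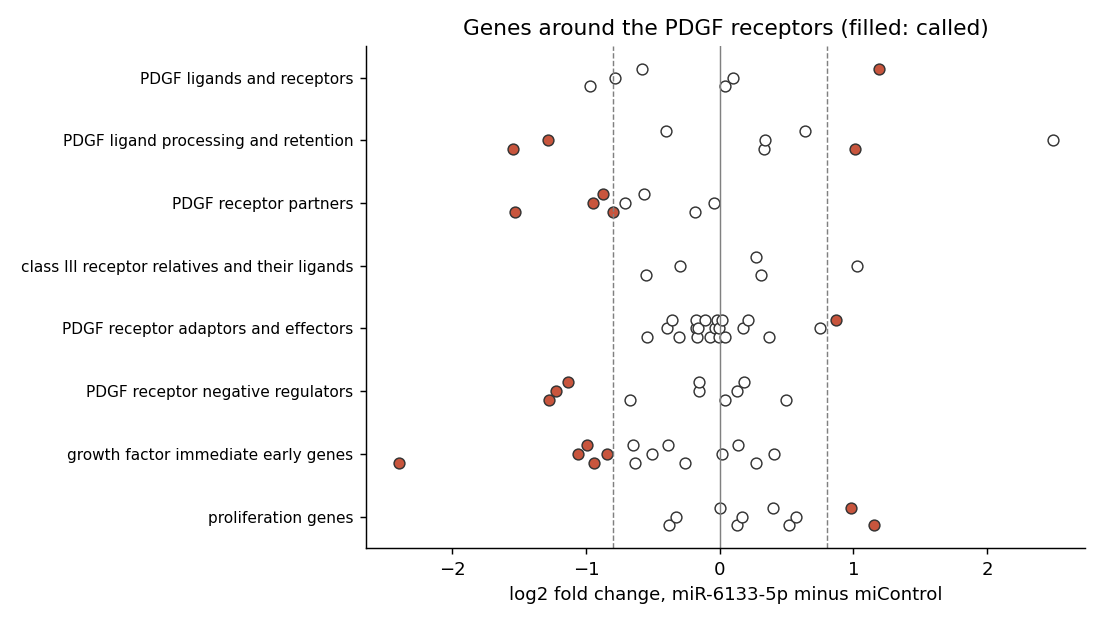
Log2 fold change, miR-6133-5p minus miControl, of every tested gene in the PDGF list and in 7 lists of genes around it, with called genes filled and the threshold of 0.8 as dashed lines. All 8 receptor partners lie below 0, *S1PR1* only just, at -0.04. The adaptors and effectors centre near -0.04, and *EGR1*, at -2.40, is the lowest point among the immediate early genes.

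**Figure D5:**
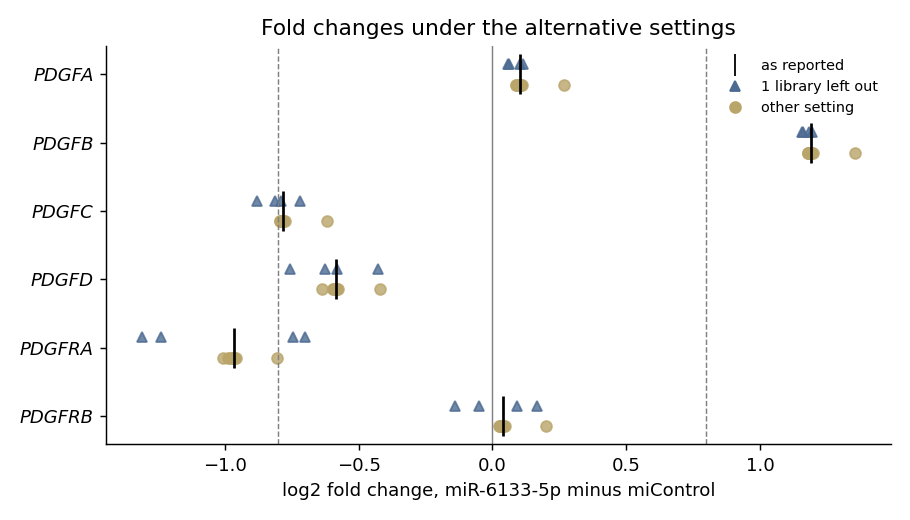
Log2 fold change of the 6 PDGF genes as reported (bars), with 1 library left out (triangles) and under the other settings (circles), with the threshold of 0.8 as dashed lines. *PDGFB* stays between 1.16 and 1.36, *PDGFC* lies between -0.88 and -0.62, and *PDGFRB* falls on both sides of 0.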

How the data were processed

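Sequencing libraries of poly(A) RNA from 4 LX-2 samples, 2 per group, were analysed. Per the labels and the methods, the authors used STAR 2.5.3a to map pairs of 150-base reads to GRCh37 and counted reads per Ensembl gene with featureCounts of Subread 1.6.4, and they deposited whole-number counts without normalization. The annotation release and the strand setting are not given in the sources used here. The single-library tables held the same counts. The mapping summary, deposited as counts of read pairs, was used for depth.

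Counts were filtered with filterByExpr, scaled with TMM and tested two-sided with glmQLFit and glmQLFTest of edgeR 4.0.16 under R 4.3.3, with Benjamini–Hochberg adjustment over 18252 genes and the thresholds of the study's methods. Standard errors and 95% intervals came from the F statistic. The labels do not say that replicates came from separate cultures, so p-values measure only the spread between these libraries. A count of 3 was at most 0.0610 CPM. Symbols, positions and exon lengths came from GENCODE 44 lifted to GRCh37, in which 55665 of 63677 gene IDs were found, and hairpin bases from RefSeq.

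The members and lists were chosen with earlier results of these data known. Genes named besides the members are the called genes of each list, up to 4 per direction, with *MYC*, called in its list but beyond that limit. Some uncalled genes were named after their values were seen (*PLAT*, *KIT*, *S1PR1*, *NRP1*, *PCNA*, *CDK1*, *CCNB1*, *CCND1*, *E2F1*, *MKI67*, markers and those of the closing section). Alternatives were RLE factors, library totals, DESeq2 1.42.0, other filters, a replicate block, thinned counts, glmTreat, an adjusted p-value of 0.05 and leaving out each library. The procedure was tested on simulated data. Sequences and plots were handled in Python 3.11.15.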

Additional observations from a re-analysis of the deposited data

How the results depend on the processing

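Of 78 recomputed fold changes of the 6 genes, 72 kept their direction and stayed called or not called as before. With glmTreat against 0.8, *PDGFB* kept its 1.19 but was not called (adjusted p = 0.0204, edgeR), which left 0 members called higher. At an adjusted p-value of 0.05 with no fold threshold, *PDGFC* passed at -0.78, so 1 member counted as lower. When any 1 library was dropped, the single library remaining in that group being assumed to vary like the rest, *PDGFC* ran from -0.88 to -0.72, *PDGFRB* from -0.14 to 0.17, the members called lower from 0 to 1, and all genes called higher from 293 to 587, the lowest without replicate 1 of miControl. Scaling by totals only moved the median of all genes from 0.03 to 0.19, called 977 genes higher and lowered the share of lower calls from 65.6% to 42.1%, and *PDGFC* was then -0.62 and *PDGFRA* -0.81. Over all genes, edgeR called 1011 lower and 529 higher, glmTreat 326 and 80, and an adjusted p-value of 0.05 alone 2937 and 2574. The labels do not say that a replicate number marks a shared batch, and replicate differences correlated at 0.05 over genes between the groups. The replicate block called 1130 genes lower and 642 higher and changed no call among the 6 genes, with *PDGFB* at 1.19, *PDGFC* at -0.78, *PDGFD* at -0.58, *PDGFRA* at -0.97, *PDGFA* at 0.10 and *PDGFRB* at 0.03. Of 182 recounts in the lists, 28 moved, either by over 1.5 times or to or from 0. With the longest transcript's length, 11 of 12 levels per kb moved beyond 1 SD, *PDGFA* from 7.73 to 12.9 CPM per kb with miControl, while the order of the means was the same. Few counts limit *PDGFRA* and *PDGFD*. Causes of these shifts were not tested.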

Other observations

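*SPARC*, a matricellular protein that binds PDGF-B, was at 3675 and 3600 CPM with miControl and at 2877 and 2621 CPM with miR-6133-5p (log2 fold change -0.40, adjusted p = 0.00784, edgeR), and was not called. *PTPN12*, a tyrosine phosphatase, was at -0.67 (adjusted p = 0.00031, edgeR), with 294 and 314 CPM against 198 and 184 CPM. *ST14*, the matriptase gene, had 0 and 6 counts with miControl and 17 and 39 counts with miR-6133-5p, too few for a firm fold (adjusted p = 0.0395, edgeR). These 3 genes were picked from the lists after their values were seen.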
